A study of Homo sapiens with 12 samples.

Results

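Dense clusters of FoxK1 sites were defined from the 6 peak lists of a chromatin immunoprecipitation and sequencing study in HepG2 cells. Peaks of the 6 lists that shared 1 bp or more were merged into 66423 regions on chromosomes 1 to 22, and 15684 of these (23.6%) held a peak in every list. Shared regions were chained wherever the gap to the next was at most 20 kb. The clusters are the chains of 5 or more. They comprise 225 of 10769 chains and hold 1328 shared regions, which is 8.47% of the shared regions and 2.00% of all merged regions. The remaining 14356 shared regions, in chains of 1 to 4, serve as their comparison.

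HepG2 is a human hepatocellular carcinoma line, and all samples come from it. The 3 insulin libraries (100 nM insulin for 20 min) and 3 untreated libraries were immunoprecipitated with a FoxK1 antibody, in both cases after 16 h in serum-free medium. The 6 input libraries were not analysed here. No label says that replicates were separate cultures, so each p-value here reflects variation among these libraries alone, and that variation may be technical. Peak lists carry no expression, so the labelled cell type could not be set against marker genes.

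FoxK1 is a forkhead transcription factor that binds DNA through its winged-helix domain and works with corepressor complexes. In liver cells, insulin is known to send FoxK1 into the nucleus while it sends the related FoxO factors out, and FoxK factors are known for effects on autophagy, glycolysis and cell growth. Sites of a transcription factor often lie close together where active promoters and enhancers are packed, so a run of neighbouring sites can mark a gene-dense or strongly regulated stretch. The question put here is where such runs lay, how strong their sites were, and whether insulin changed them.

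The insulin lists held 48208, 45057 and 27503 peaks, and the untreated lists 44687, 31668 and 26082. Replicate 3 stood apart in both treatments: the lowest background value found in the list was shared by 29.7% of the peaks in insulin replicate 3 and 33.2% in untreated replicate 3, and by no more than 1.29% elsewhere. A further 6174 regions were found only in replicate 3 lists, and 69.5% of them lay on chromosomes 2, 6, 14, 16, 17 and 20. Read totals are not given with peak lists, so depth is unknown.

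The clusters were short chains of closely spaced sites. There were 114 chains of 5 regions, 61 of 6, 30 of 7, 9 of 8, 5 of 9 and 4 of 10. One chain held 11 regions and 1 held 14. Chain length had a median of 43.6 kb and ran between 11.7 and 142 kb, and the 225 chains together spanned 10.2 Mb. The member regions covered 17.1% of that span. The median gap between neighbouring members was 6450 bp, while the median gap between all neighbouring shared regions was 45562.5 bp; the rule fixes the direction of this difference. Just outside the rule stood 262 chains of 4 regions. Their regions had a median percentile of 76.0 by −log10 q within a list, averaged over the 6 lists, against 74.0 for the regions of the 114 chains of 5. The widest gap kept inside a chain anywhere was 19996 bp and the narrowest gap that ended one was 20004 bp.

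**Figure D1:**
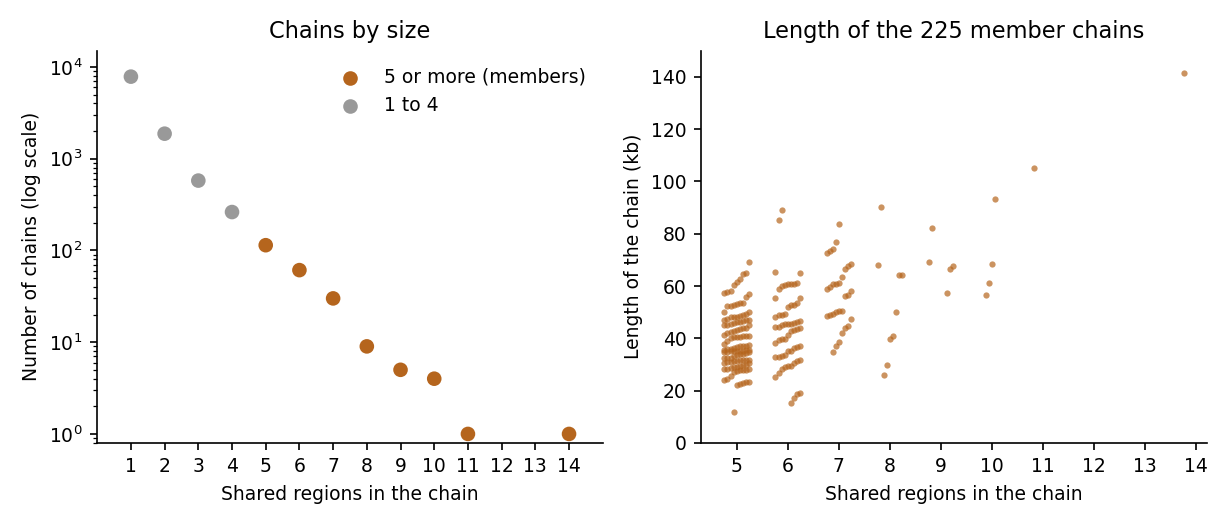
Left, number of chains (log scale) by the number of shared regions they hold; right, length in kb of each of the 225 member chains by its number of regions, with points shifted sideways so that they do not hide each other. Numbers fall steadily with size, and single chains of 11 and 14 regions end the series at 105 and 142 kb.

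The largest cluster lay on chromosome 17, 40931685 to 41073349 (build hg19), and was also the longest: 14 shared regions in 142 kb. Next came 11 regions in 105 kb on chromosome 17, 8021978 to 8127253. The chains of 10 regions were chromosome 4, 1747901 to 1804573 (56.7 kb), chromosome 7, 150052142 to 150113233 (61.1 kb), chromosome 4, 6690098 to 6758600 (68.5 kb), and chromosome 17, 79922273 to 80015543 (93.3 kb). The 4 chains of 9 regions that completed the first 10 lay on chromosome 6 at 3355517 to 3412786, chromosome 17 at 56429145 to 56495466, chromosome 9 at 140082696 to 140150322, and chromosome 11 at 116643197 to 116712465. The shortest of the 225 was a run of 5 regions in 11.7 kb on chromosome 3, 194875714 to 194887420, with no gap above 4483 bp.

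The deposited lists name no genes and the gene table at hand is on another build (GRCh38), so no gene was assigned to any region. As general background on 3 of these places, the chromosome 17 stretch of the largest cluster is known to carry BECN1, a core autophagy gene, and G6PC1, the catalytic subunit of glucose-6-phosphatase and the last step of gluconeogenesis. PSME3, AOC2 and AOC3 sit between them. The 11-region stretch of the same chromosome is known for PER1, a circadian clock gene, and AURKB, a mitotic kinase. The chromosome 11 stretch is known for APOA5, APOA4, APOC3 and APOA1, apolipoproteins of triglyceride-rich particles and HDL. In the GRCh38 gene order, no protein-coding gene beyond those named lies between BECN1 and G6PC1 or between APOA5 and APOA1, while VAMP2, TMEM107 and BORCS6 lie between PER1 and AURKB. These places rest on general knowledge and were not tested. The genes named are a choice and not a full list for these stretches, and none are named for the other chains above.

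Chromosome 17 held far more of the clusters than its share of sites. It had 38 of the 225 chains and 239 of the 1328 members, or 18.0% of the members against 6.55% of all shared regions. Of its own shared regions, 23.3% lay in clusters. Chromosome 16 followed with 15.5% (128 members) and chromosome 20 with 14.9% (84 members). Chromosomes 6, 14, 11 and 2 lay close together at 10.1%, 10.0%, 9.81% and 9.32%. At the low end were chromosome 5 with 2.41%, chromosome 15 with 1.34% and a single chain, and chromosome 21 with none of its 114 shared regions in a cluster. These shares follow from the rule's own distances and are given as a description.

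Some chromosomes rich in clusters also stood apart in replicate 3 and in background. Chromosomes 2, 6, 14, 16, 17 and 20 held 742 members and 124 chains, which is 55.9% of the members against 34.5% of all shared regions. At shared regions outside the clusters, the median background at the summit on those 6 chromosomes was 1.37, 1.37 and 1.37 times that on the rest in insulin replicates 1, 2 and 3, and 1.36, 1.38 and 1.44 times in untreated replicates 1, 2 and 3. The 6 were not alike: relative to shared regions outside the clusters on all chromosomes, the background averaged 1.56 times on chromosome 20 and 1.34 on chromosome 16, but 1.02 on chromosome 14. Chromosome 11, with a higher share in clusters than chromosome 2, stood at 0.917 and chromosome 19 at 1.08. The part of this in where clusters were found was not tested. Without both replicate 3 libraries the same rule gave 707 chains with 4633 members among 24644 regions shared by the other 4 lists. Of those members, 44.2% lay on the 6 chromosomes, against 33.0% of the shared regions. Chromosome 17 then still had the highest share of its shared regions in clusters, 35.7%. Chromosome 16 came next with 31.5%, then chromosome 19 with 30.6%, where it had 8.72% with all 6 lists. Of the 225 chains, 224 overlapped a chain of that larger set, and its largest chain held 24 regions at chromosome 17, 40896336 to 41081660, around the largest cluster above.

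**Figure D2:**
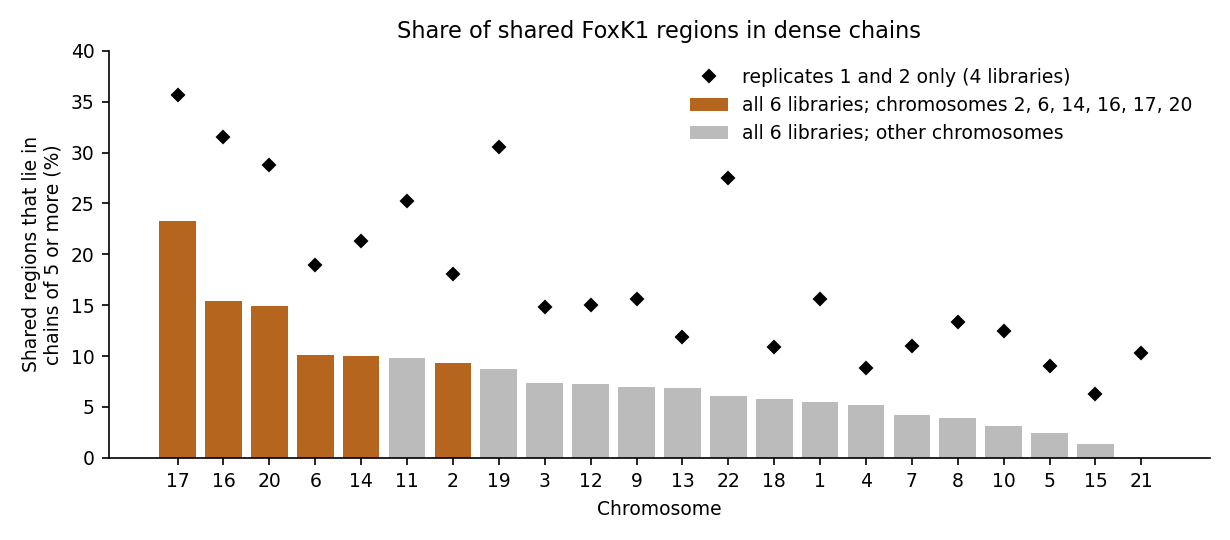
Percent of each chromosome's shared regions that lie in chains of 5 or more, in descending order; bars use all 6 libraries, brown for chromosomes 2, 6, 14, 16, 17 and 20, and diamonds use replicates 1 and 2 only. Chromosome 17 is highest both ways (23.3% and 35.7%), while chromosomes 19 and 22 stand high only by the diamonds.

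The spacing of clusters was uneven. The median distance between neighbouring clusters was 3.05 Mb and the shortest 22.6 kb, and 104 of the 225 lay within 1 Mb of another. In bins of 10 Mb, the end of chromosome 17 (70000001 to 80000000) held 13 chains with 75 of its 225 shared regions. Chromosome 16, 80000001 to 90000000, held 7 chains with 39 of 149, and chromosome 17, 40000001 to 50000000, held 6 chains with 46 of 185. The bin at chromosome 6, 20000001 to 30000000, known for a large histone gene cluster, held 5 chains with 30 of 114. In all, 109 bins held a cluster and 56 of them held just 1.

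Member sites were slightly stronger than other shared sites by −log10 q, the authors' significance of a peak within its own list. The median member stood at the 83.5, 82.0 and 71.4 percentile of its list in insulin replicates 1, 2 and 3, against 81.6, 80.5 and 69.4 for other shared regions. In untreated replicates 1, 2 and 3 it stood at 80.9, 74.8 and 70.0, against 79.9, 71.6 and 68.1. The medians of members were higher in 6 of 6 libraries, by 1.92 ± 0.722 percentile points on average (SD, n = 6), while the quartile ranges of both sets overlapped widely. Flipping signs over libraries (exact test, two-sided) gave p = 0.03125, the smallest value that 6 libraries allow; all 6 measure the same regions. With same-numbered libraries taken as pairs, p was 0.25, the smallest value that 3 pairs allow.

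**Figure D3:**
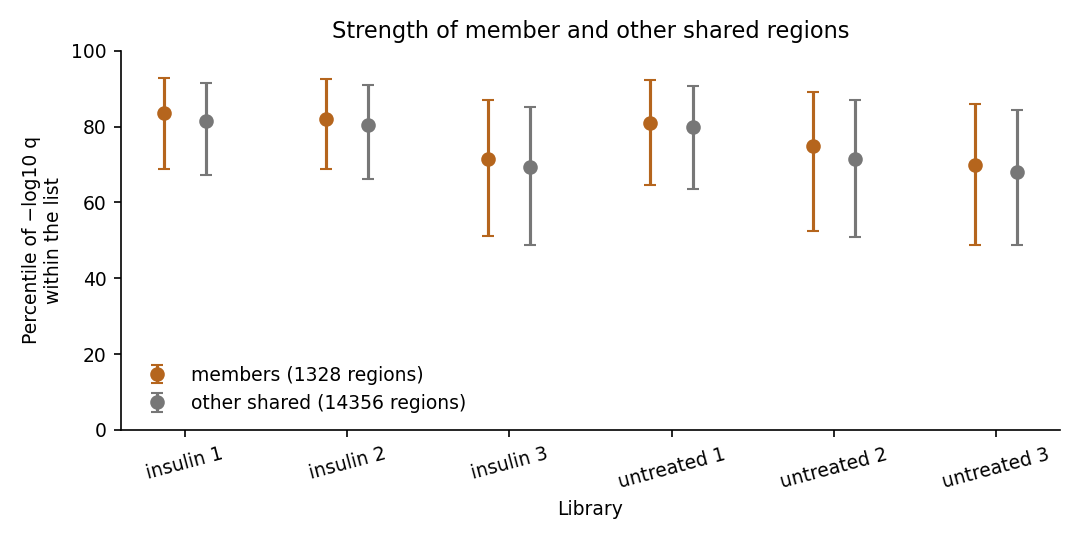
Percentile of −log10 q within its list of the strongest peak of each region, for members (brown) and other shared regions (grey) in each library; points are medians and bars run from the lower to the upper quartile. Members sit 1.04 to 3.20 points above the other shared regions, far less than the quartile range of either set.

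The difference did not appear in fold enrichment. The median deposited fold of members, their summit over the local background in the same list, was 10.2, 9.32 and 6.29 in insulin replicates 1, 2 and 3, against 10.2, 9.29 and 6.19 for other shared regions. In untreated replicates 1, 2 and 3 it was 6.25, 5.17 and 5.23, against 6.50, 5.13 and 5.23. The ratio of the medians averaged 0.997 (two-sided exact sign-flip p = 0.9375, n = 6). Ranked by fold in place of −log10 q, the median member differed from the others by -0.0821 percentile points on average. Both the fragments at the summit and the background there, worked out from the deposited fold and p, were higher in clusters. Fragments were 1.10 times and background 1.11 times those of other shared regions, in 6 of 6 libraries each (two-sided exact sign-flip p = 0.03125 for each, n = 6, and p = 0.25 by pairs for the background). Set against other shared regions of the same chromosome, the difference in percentile was 1.03 points and that in background 0.0236 on the log2 scale, against 0.153 over all chromosomes.

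The share of members among the strongest regions of each library was a little above that among shared regions, which was not tested. The 1000 strongest regions of each library, shared or not, held 107, 106 and 104 members in insulin replicates 1, 2 and 3. In untreated replicates 1, 2 and 3 they held 104, 102 and 104. That is 10.2% to 10.7%, where members make up 8.47% of shared regions and 2.00% of all merged regions. The 1000 were not limited to shared regions, so these shares have different bases. Member regions were also a little wider, with a median of 1131.5 bp against 1087.5 bp. More of them held several peaks of 1 list, 14.7%, 4.14% and 9.11% in insulin replicates 1, 2 and 3 against 10.7%, 2.87% and 6.60% of other shared regions. The shares were 9.64%, 8.66% and 8.13% in untreated replicates 1, 2 and 3, against 6.30%, 5.48% and 5.64%.

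Most clusters held sites of widely different strength. The mean percentile of a member over the 6 lists had an SD of 19.0 over all 1328 members and of 18.6 within chains, so sites varied within a chain nearly as much as over all members. To compare libraries without regard to list length, each shared region was also ranked among the 15684 shared regions of a library, with 100 for the strongest. By the mean of this rank over the 6 libraries, the strongest and weakest member of a chain lay a median of 64.9 points apart. The distance was over 50 points in 176 of 225 chains. A member at or above the 90th percentile stood in 106 chains, a member at or below the 10th in 53, and 21 chains held both. The narrowest chain ranged over 17.1 points.

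The 10 strongest members lay in 10 different chains. First by mean percentile was chromosome 20, 49014996 to 49017810, in a chain of 8. Its fold was 96.0, 66.1 and 60.4 in insulin replicates 1, 2 and 3, and 26.7, 25.8 and 29.1 in untreated replicates 1, 2 and 3. Folds depend on each library's own background and were not compared between lists; by rank this site stood between 5th and 28th in every list. Its chain held the widest range of the 225, from this site down to a mean rank of 4.91. The next member, chromosome 14 at 24582589 to 24584836, showed folds of 35.1, 31.3 and 31.3 across insulin replicates 1, 2 and 3 and 17.3, 14.8 and 19.1 in untreated replicates 1, 2 and 3. It ranked between 28th and 43rd in all 6 lists. Chromosome 12, 120755092 to 120756018, had folds between 22.5 and 67.5, and chromosome 17, 42185204 to 42186598, between 20.5 and 65.5. The other six were on chromosome 16 at 15735941 to 15738539 and 89753390 to 89754274, chromosome 17 at 1627512 to 1628622, chromosome 1 at 27816194 to 27817466, chromosome 19 at 18625335 to 18626278, and chromosome 2 at 20810739 to 20811676. None of these 10 ranked below 246th in any list.

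The weakest members stood low in their lists. Chromosome 12, 122231484 to 122233194, had folds of 3.05, 3.22 and 3.28 in insulin replicates 1, 2 and 3 and 2.65, 2.61 and 3.65 in untreated replicates 1, 2 and 3. It stood between the 10.0 and the 27.9 percentile of its lists. Chromosome 13, 27525543 to 27526362, had folds between 3.02 and 4.65, and chromosome 13, 113824026 to 113824734, between 2.67 and 5.58. Each of the 3 lay in a chain of 5 or 6.

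Within the largest cluster, the rank moved up and down along the 142 kb. The site at 41046040 to 41046980 was its strongest, at the 95.9, 97.1 and 95.0 percentile of shared regions in insulin replicates 1, 2 and 3 and the 97.8, 97.1 and 96.6 in untreated replicates 1, 2 and 3. The weakest was 41005465 to 41006770, at 6.59, 6.57 and 2.65 in the insulin libraries and 2.95, 3.80 and 19.2 in the untreated libraries. The weak and the strong sites were interleaved. At 41043423 to 41044106 all insulin ranks (63.5, 62.6 and 56.0) lay below all untreated ranks (85.1, 83.0 and 84.7). At 41007194 to 41007823 they lay above, at 26.2, 32.4 and 38.6 against 20.5, 9.38 and 13.3. Neither site passed the limma test (adjusted p = 0.990 for each). The mean rank of the whole chain was 60.9, 62.6 and 54.8 in insulin replicates 1, 2 and 3 and 65.0, 61.3 and 56.2 in untreated replicates 1, 2 and 3, and the treatments overlapped. The difference, insulin minus untreated, was -1.41 ± 4.49 points (SE from limma, n = 3 each, Benjamini-Hochberg adjusted p = 1.00 over all chains).

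**Figure D4:**
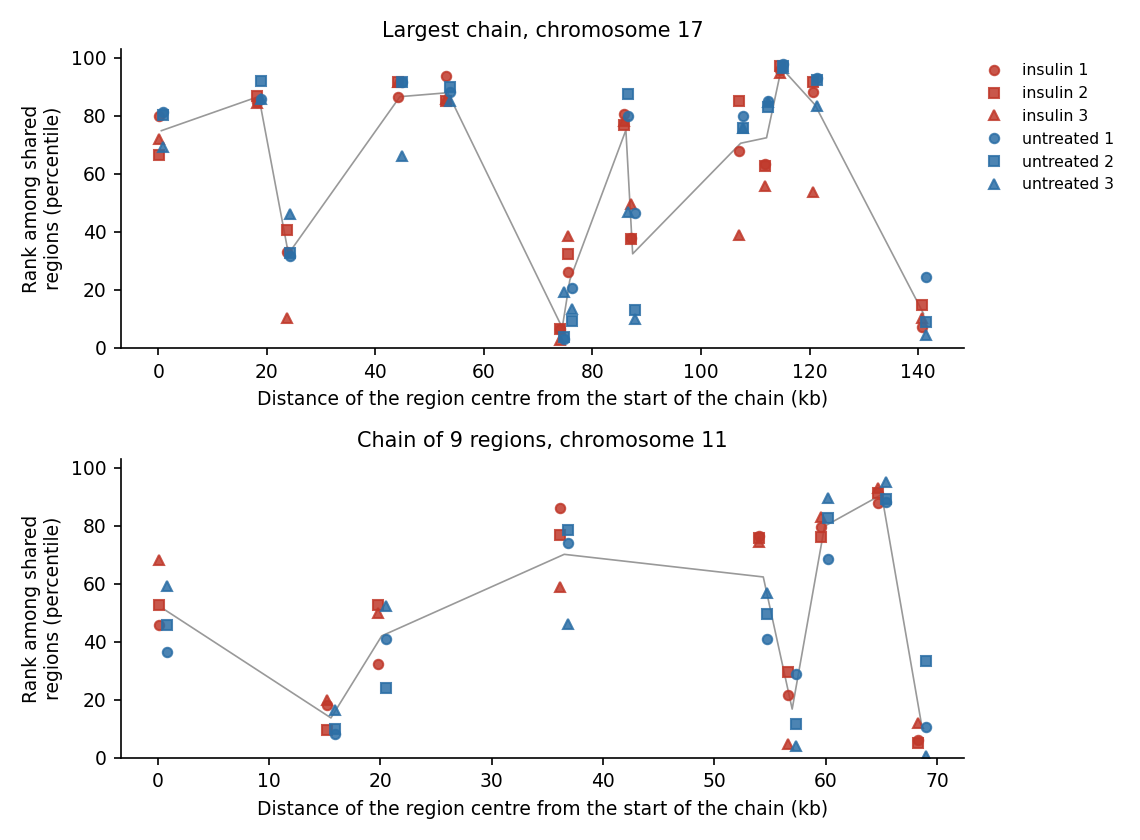
Rank of every member among the 15684 shared regions (100 is strongest) along 2 clusters, by distance from the start of the chain; red marks the 3 insulin and blue the 3 untreated libraries, marker shapes show the replicate, and the grey line joins the means. In the chromosome 17 chain of 14 regions and the chromosome 11 chain of 9, strong and weak sites alternate. Points of the strongest site of each chain lie close together. Those of other sites can spread widely, from 38.9 to 85.2 at chromosome 17, 41038333 to 41039649.

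The chromosome 11 cluster had the largest difference between treatments among the 10 chains with most regions. Its mean rank was 50.5, 52.2 and 51.5 in insulin replicates 1, 2 and 3, against 44.1, 47.2 and 46.7 in untreated replicates 1, 2 and 3. All 3 insulin libraries lay above all 3 untreated ones, by 5.40 ± 3.62 points (SE from limma, n = 3 each, adjusted p = 0.996 over all chains). The SD of these mean ranks was 0.850 with insulin and 1.68 without (n = 3 each). The limma SE exceeds both, as it also draws on the spread of all 10769 chains, 7833 of them single regions. The most uneven region of the cluster was 116697089 to 116698085. Its ranks were 76.6, 75.8 and 74.5 in the insulin libraries against 41.0, 49.4 and 56.9 in the untreated libraries. The strongest site of the chain, 116707488 to 116708951, was even, at 88.0, 91.3 and 92.9 with insulin and 88.2, 89.1 and 95.1 without. In the 11-region chain of chromosome 17, the mean rank was 54.8, 50.6 and 41.6 with insulin and 52.9, 48.9 and 48.2 without, and the site at 8059404 to 8060589 reached 98.1, 98.2 and 96.7 with insulin and 98.0, 98.4 and 96.5 without. In the chromosome 4 chain at 6690098, ranks were 58.6, 56.5 and 61.4 with insulin and 50.5, 53.3 and 57.1 without, so the treatments overlapped.

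No cluster and no member region passed the test for a difference between insulin and untreated cells. limma was fitted to the ranks of all 15684 shared regions and to the mean ranks of all 10769 chains. At a Benjamini-Hochberg adjusted p under 0.05 it called 0 of 1328 member regions, where 0.0% of all regions were called, and 0 of 225 clusters, where 0.0% of all chains were called. The smallest adjusted p was 0.990 for a member region and 0.996 for a cluster. With the replicate number as a block these were 0.697 and 0.728, with 0 calls again. At an unadjusted p under 0.05 there were 70 member regions, or 5.27% of them against 4.95% of all shared regions. For clusters it was 2 of 225, or 0.889% against 4.79% of all chains. These counts come from the fit without the replicate block. With the block they were 96 member regions and 2 clusters. The shares over all shared regions and all chains under the block were not worked out. A mean over 5 or more regions varies less than a single region, and the fit of chain means pools their spread with that of single regions. Weighted by the number of regions, the fit gave 11 clusters, or 4.89% against 4.83% of all chains, and still no adjusted call. A p that misses the threshold does not show that treatments act alike, and 3 libraries a side leave wide errors.

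The differences in rank were centred near 0, as ranking within each library sets their mean over all shared regions at 0. A gain or loss common to all sites therefore cannot be seen by rank. Sites missing from any list are outside the rule. The median difference, insulin minus untreated, was 0.527 percentile points over member regions and 0.131 over all shared regions, with 53.4% and 50.9% of them above 0. Over clusters the median was 0.358 points with quartiles at -2.31 and 3.54. The difference was above 0 in 120 clusters and below 0 in 105, and within 5 points of 0 in 171. All 3 insulin libraries lay above all 3 untreated ones in 8 clusters (3.56%, where 4.66% of all chains did), and below them in 9 (4.0%, where 4.35% did). Among member regions the counts were 69 (5.20%, where 4.69% of all shared regions did) and 66 (4.97%, where 4.34% did). These shares lie near the background in both directions.

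**Figure D5:**
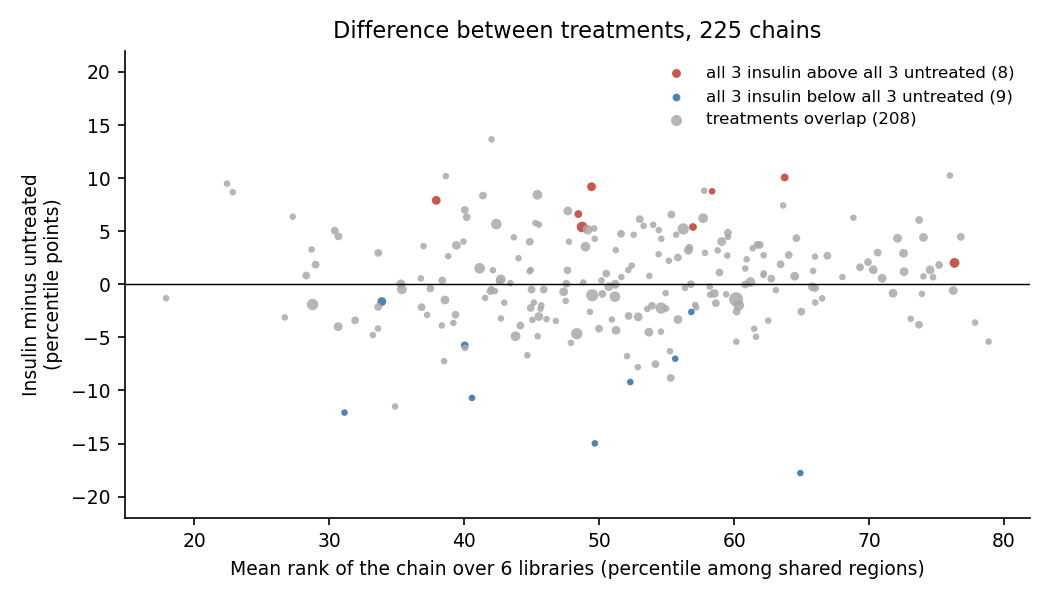
Insulin minus untreated mean rank of each of the 225 clusters (percentile points) against its mean rank over the 6 libraries; larger points hold more regions. Red and blue mark the 8 clusters with all insulin libraries above and the 9 with all insulin libraries below all untreated ones, and most clusters lie within 5 points of 0.

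The clusters at both ends of this range were all chains of 5, picked here for their difference and given with no test. The lowest was chromosome 10, 45454416 to 45501280, with mean ranks of 52.2, 58.3 and 57.6 in insulin replicates 1, 2 and 3 against 72.0, 69.9 and 79.5 in untreated replicates 1, 2 and 3, a difference of -17.79 points. All insulin values lay below all untreated ones. At chromosome 16, 15669373 to 15738539, ranks were 40.9, 38.6 and 47.1 with insulin against 66.4, 55.5 and 49.6 without, again with no overlap. Next, chromosome 16 at 82089588 to 82117841, had 26.5, 23.8 and 24.9 against 28.1, 31.3 and 52.1, with no overlap but with untreated replicate 3 far above the other untreated libraries. The highest difference, 13.66 points, was at chromosome 7, 143579018 to 143604421, where insulin replicate 1 alone stood high: 65.9, 38.7 and 41.9 with insulin against 38.7, 31.1 and 35.8 without. Chromosome 14, 95989351 to 96017142, had 83.6, 77.2 and 82.5 against 77.5, 70.3 and 64.8, and chromosome 14, 61993483 to 62029143, had 52.5, 43.7 and 34.9 against 42.1, 38.4 and 20.1. Treatments overlapped in each of these last 3.

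Members took a similar number of peaks from every list. The rule largely fixes this, because each of the 1328 members holds at least 1 peak in every list. The share of a list that lies in members therefore depends largely on list length. Members held 1547, 1384 and 1462 peaks in insulin replicates 1, 2 and 3, and 1468, 1453 and 1446 in untreated replicates 1, 2 and 3. As a share of the list this was 3.21%, 3.07% and 5.32% with insulin and 3.29%, 4.59% and 5.54% without. The mean was 3.87% ± 1.26 with insulin and 4.47% ± 1.13 without (SD, n = 3 each), a difference of -0.607 percentage points, below the SD of each treatment (exact permutation test, two-sided, p = 0.5; 3 against 3 cannot go below 0.1). In each same-numbered pair the share was lower with insulin, and the insulin list was the longer. By these pairs the exact sign-flip p was 0.25, the smallest value that 3 pairs allow. With lists of equal length the difference was -0.0179 points (exact permutation p = 0.9). With full lists it moved with the libraries used and was -1.71 without insulin replicate 3, -1.23 without untreated replicate 1, -0.105 without untreated replicate 3, -0.240 without insulin replicate 2 and -0.277 without insulin replicate 1.

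Within the spans of the clusters lay 779 further regions that at least 1 list lacked. Shared regions thus made up 63.0% of the regions in these spans, against 23.6% of all regions, as the rule requires. Of the 779, 295 were called in 1 list, 138 in 2, 132 in 3, 104 in 4 and 110 in 5. Of the 110 called in 5 lists, the missing one was insulin replicate 3 in 31, insulin replicate 2 in 1, insulin replicate 1 in 2, untreated replicate 3 in 45, untreated replicate 2 in 27 and untreated replicate 1 in 4. The 3 shortest lists were the ones most often missing. The median cluster held 3 such regions and 18 held none. Regions called in 3 of 3 insulin lists and no untreated list numbered 7 of the 779 in the spans. On chromosomes 1 to 22 they numbered 251 of the 50739 regions that at least 1 list lacked. The reverse was found in 0 of the 779 and 24 of the 50739. It was rare everywhere, and these counts were not tested. The 7 lay in 7 different clusters and had mean percentiles of 14.4 to 54.8 in the insulin lists. The strongest of them, chromosome 16 at 87894894 to 87895761, reached folds of 6.32, 4.84 and 4.38 across insulin replicates 1, 2 and 3. The insulin lists are longer on average and a single region cannot go below an exact p of 0.1, so none of the 7 was called changed.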

How the data were processed

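Peaks were measured in 6 FoxK1 libraries, and the 6 inputs were not analysed here. The submitters' processing notes name hg19 as the build and list MACS2, Bowtie2, fastp and SAMtools. Tool versions, peak threshold and use of inputs: not given in the sources used here. Peak names carry 1 library's name, so the authors called each library by itself. The deposited fold (a linear ratio) is the summit over local background; the deposited −log10 p and q depend on depth; the deposited score is 10 times the −log10 p within 1. The deposited summit offset was not used in the results. Values of a list were used only to rank or describe its peaks.

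A region takes its strongest peak by −log10 q. Fragments n and background b at a summit were solved from fold = (n + 1)/(b + 1) and a Poisson tail; a single whole number fitted 100.0% of peaks to a tolerance of 0.0005 in −log10 p (proportional above 10). A peak counts as lying at the lowest background when it is within 0.2% of it. Ranks of the shared regions were fitted with limma 3.58.1 in R 4.3.3; single values were compared with exact permutation or sign-flip tests in Python 3.11.15 (scipy 1.17.1). Merging, chaining and fits were checked on simulated data.

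Replicate numbers were taken to pair libraries: deviations from the group mean over shared regions correlated at 0.123, 0.301 and 0.303 for numbers 1, 2 and 3, all above 0.1. Libraries of unlike number correlated at -0.319 to 0.0898. The highest of these, insulin replicate 2 with untreated replicate 1, was close to the 0.123 of number 1. The pairing comes from the data, not the labels, and is weakest for number 1. Named chains were the 10 with most regions, the longest, the shortest and the 3 at each end of the insulin difference; named regions were the 10 strongest and 3 weakest members. Single members of a chain, the one-sided region and the bins were chosen after their values were seen. The members and lists were chosen with earlier results of these data known. With no genome or annotation of hg19 at hand, the planned promoter, motif and gene family results were not computed, and no sequence is shown. Coordinates are 1-based, hg19.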

Additional observations from a re-analysis of the deposited data

How the results depend on the processing

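The number of clusters is set by the rule's own limits. Members and chains numbered 281 and 51 with gaps up to 10 kb, 3703 and 551 with 40 kb, 2376 and 487 for chains of 4 or more, 182 and 20 for chains of 8 or more, 528 and 95 with −log10 q of at least 5, 821 and 145 with lists of equal length, and 41 and 8 where each library had to cover 50% of a region. They numbered 4633 and 707 with both replicate 3 libraries dropped, and 586 and 101 without chromosomes 2, 6, 14, 16, 17 and 20. With each library left out they ranged from 1353 to 2080 members and 229 to 336 chains, and members moved over 1.5 times only without untreated replicate 3 (2080). Fewer lists make the rule easier to meet.

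The excess of members in percentile (1.92 points) kept its sign in 18 of 19 alternatives and was -0.0821 by fold enrichment; the cause was not tested. It missed the threshold with 10 kb gaps (1.44), chains of 8 or more (0.319) and 50% cover (0.140). It could not pass with both replicate 3 libraries dropped (2.61, exact sign-flip p = 0.125, the smallest value possible there). Nor could it pass with the replicate block (1.92, exact sign-flip p = 0.25, again the smallest possible). With each library left out it ranged from 1.64 to 2.63, where 5 libraries cannot pass (0.0625 at best). The background ratio (log2 0.153) stayed above 0 in all 19, from 0.0113 without those 6 chromosomes to 0.186, and missed the threshold when both replicate 3 libraries were dropped (0.170), with the replicate block (0.153) and with each library left out (0.127 to 0.169), again with too few libraries to pass. Calls between treatments stayed at 0 in the 18 alternatives for regions and 19 for chains. The difference in peak share, which depends largely on list length, stayed negative (-2.60 to -0.0171). The median rank difference of members stayed positive (0.147 to 1.45). The alternatives without replicate 3 or chromosomes, within chromosomes and with weighted chains were chosen after seeing the data. Depth is unknown, and the −log10 q percentile of weak sites rests on few fragments.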
